A study of Mus musculus with 45 samples.

Results

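The miRNAs of alveolar macrophages (AMs) from co-ex male mice after filtered air (FA) or ozone (O3) are described here, 4 FA mice against 3 O3 mice. These 7 mice, of 45 in the series, are all the mice labelled co-ex and male, and the table deposited for them lists 234 miRNAs. The study's text gives 3 animals per condition for co-ex males, whereas 4 co-ex males are labelled FA, and all 4 were used. All 7 carried human transgenes for both surfactant protein A genes, SP-A1 (6A2) and SP-A2 (1A0), on a C57BL/6J background without mouse SP-A, and the FA mice carried the same alleles as the O3 mice. They were 12 weeks old, breathed FA or O3 (2 ppm) for 3 h, and their AMs were taken by bronchoalveolar lavage after 18 h of recovery. The study set FA against O3 in co-ex, SP-A2 and SP-A knockout (KO) mice of both sexes. It asked how the SP-A variants and sex bear on the miRNA response of AMs. In bulk AM RNA, fewer cells of a type and less RNA per cell cannot be told apart, and the purity of the lavaged cells is not given in the sources used here.

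A miRNA is a short RNA, cut from a hairpin precursor, that lowers the output of messenger RNAs through pairing of its seed, bases 2 to 8. Either arm of the hairpin (5p or 3p) can give the mature form, and miRNAs with one seed can share targets. AMs are the resident phagocytes of the airspace, where SP-A is secreted by the epithelium. Inhaled O3 oxidizes the lining fluid of the lung and draws in inflammatory cells.

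RefSeq (GRCm38.p6) held the mature sequence of 202 of the 234 miRNAs, which carried 73.7% of the summed signal and fell into 165 seeds. The seed is in capitals in every sequence printed. The first set shares the let-7 seed, whose members took the largest part of the reads in most mice. They differ from each other by few bases, and how reads fitting more than one of them were counted is not given in the sources used here.

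let-7a-5p: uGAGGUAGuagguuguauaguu
let-7b-5p: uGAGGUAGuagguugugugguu
let-7c-5p: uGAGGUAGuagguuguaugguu
let-7d-5p: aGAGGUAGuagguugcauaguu
let-7f-5p: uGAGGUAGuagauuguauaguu
miR-1961: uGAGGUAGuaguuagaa

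The second set is of the other abundant miRNAs with a sequence, with 3 further seeds.

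miR-125a-5p: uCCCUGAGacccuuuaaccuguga
miR-423-5p: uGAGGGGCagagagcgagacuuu
miR-92a-3p: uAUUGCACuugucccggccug

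The third set is of the miRNAs with a sequence that had an unadjusted p below 0.05 or a DESeq2 call between O3 and FA, together with the 5p arm of miR-146b. No seed is shared within it.

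miR-2137: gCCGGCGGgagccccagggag
miR-18a-3p: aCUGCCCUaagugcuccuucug
miR-139-5p: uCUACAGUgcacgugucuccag
miR-183-5p: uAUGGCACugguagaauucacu
miR-146b-3p: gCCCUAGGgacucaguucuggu
miR-146b-5p: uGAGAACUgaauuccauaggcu
miR-1249-3p: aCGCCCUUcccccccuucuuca
miR-505-5p: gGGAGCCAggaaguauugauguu

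In GRCm38.p6, miR-2137 lies at chrX:72992113-72992133 on the plus strand in an intron of Zfp185. miR-18a-3p lies at chr14:115043908-115043929 on the plus strand in an exon of Mir17hg, the host transcript of the miR-17-92 cluster. miR-139-5p lies at chr7:101475382-101475403 on the plus strand in an intron of Gm45837. Where several genes on the strand hold an arm, only the first by name is given here. miR-183-5p lies at chr6:30169711-30169732 on the minus strand, where the annotation has no other gene on that strand. Both arms of miR-146b lie in an intron of Mfsd13a, the 5p arm at chr19:46342790-46342811 and the 3p arm at chr19:46342828-46342849, both on the plus strand. miR-1249-3p lies at chr15:84951545-84951566 on the minus strand in an exon of 5031439G07Rik. The genome build used for the deposited table is not given in the sources used here.

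The 7 libraries were of uneven depth and completeness. Values are normalized read counts, each a whole multiple of the smallest value of its mouse. Taking that smallest value as 1 read, the listed miRNAs held 137965, 1467848, 505868 and 1300004 reads in FA mice 1 to 4 and 1757205, 1677699 and 689956 in O3 mice 1 to 3. The means differed by 522032 reads (exact permutation test, two-sided p = 0.314, where the smallest p possible is 0.0286). miRNAs at 0 numbered 79, 37, 50 and 92 in the FA mice and 44, 34 and 26 in the O3 mice, and 96 miRNAs were above 0 in all 7. FA mouse 4 had the most zeros although FA mouse 1 had the fewest reads, and in 71 of its 92 zeros the mean of the other mice was worth 100 reads or more at its depth. Thinned to 137965 reads, 155, 180, 176 and 123 miRNAs would be detected in the FA mice and 174, 187 and 194 in the O3 mice (exact permutation test, two-sided p = 0.171). Rank correlations across miRNAs were 0.63 to 0.82 between mice of one exposure and 0.64 to 0.76 between mice of different exposures.

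**Figure D1:**
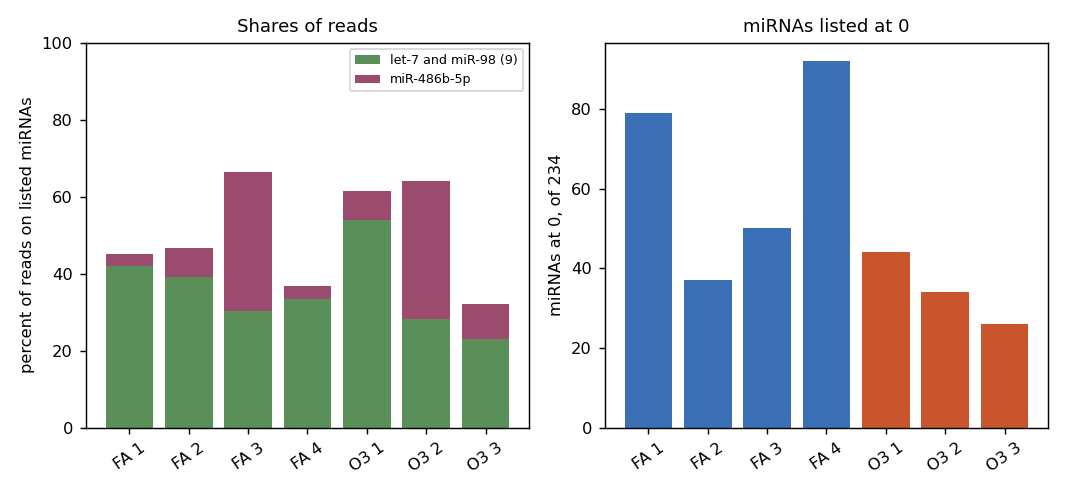
Left, percent of reads on listed miRNAs that fell on the 9 5p arms of let-7 and miR-98 (green) and on miR-486b-5p (purple) in each mouse. Right, number of the 234 miRNAs at 0 in each mouse, blue for FA and red for O3. miR-486b-5p took over 30% of the reads in FA mouse 3 and O3 mouse 2 only, and FA mouse 4 had the most zeros.

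The most abundant miRNAs of co-ex male AMs were let-7 members, miR-486b-5p, miR-125a-5p, miR-30d-5p, miR-423-5p and miR-92a-3p. None of these 10 had an unadjusted p below 0.05 between O3 and FA, and the values of the groups overlapped for each. Together the 10 took between 50.5% of the reads (O3 mouse 3) and 78.8% (FA mouse 3).

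The let-7 family, which restrains growth-promoting genes and is widely expressed in differentiated cells, had 42.1%, 39.1%, 30.2% and 33.4% of the reads in FA mice 1 to 4. In O3 mice 1 to 3 it had 54.1%, 28.3% and 23.1%. The highest and the lowest of these 7 shares were both O3 mice, so the spread within O3 exceeded the distance between the groups. let-7a-5p, the leading member, was at 170827, 157764, 150315 and 125940 after FA and at 216662, 128696 and 68530 after O3. let-7f-5p was at 49375, 27681, 26287 and 23585 after FA and at 96092, 21808 and 13878 after O3, highest in FA mouse 1 and O3 mouse 1. let-7b-5p was at 53902, 46604, 120679 and 22608 after FA and at 111927, 93571 and 36256 after O3, with FA mouse 3 and O3 mouse 1 high. Summed over the 11 miRNAs with the let-7 seed, which include miR-1961, the log2 difference (O3 minus FA) was 0.03 with an SE of 0.42.

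miR-486b-5p, a miRNA abundant in red cells, had the highest mean and the widest spread of the leading miRNAs. Its values were 31032, 68933, 603115 and 27146 after FA and 94595, 515953 and 76674 after O3. FA mouse 3 and O3 mouse 2, 1 of each exposure, stood far above the other 5. Its share of the reads was 36.3% (95% Wilson interval 36.2 to 36.4) in FA mouse 3 and 35.8% (35.7 to 35.9) in O3 mouse 2, against 3.09% to 9.03% in the others, where intervals cover counting error only. The other erythroid miRNAs were far below miR-486b-5p. miR-451a, a miRNA specific to the red cell lineage, was at 21.8, 52.5, 237 and 0.618 after FA and at 204, 203 and 11.1 after O3. miR-144-5p was at 0, 0, 355 and 0 after FA and at 1591, 0 and 1.23 after O3, highest in a mouse without high miR-486b-5p. miR-92a-3p, of the miR-17-92 cluster, was high in FA mouse 3 and O3 mouse 2, at 13844, 16846, 72301 and 14751 after FA and 15656, 46395 and 17671 after O3.

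miR-30d-5p was the steadiest of the 10, from 52463 to 63444 in the FA mice and from 56170 to 62216 in the O3 mice. miR-125a-5p, which damps inflammatory signalling in macrophages, was at 94091, 70359, 64376 and 84878 after FA and at 33787, 51779 and 67010 after O3. O3 mouse 3 lay within the FA range, O3 mice 1 and 2 below it, and the log2 difference was -0.66 (SE 0.41, limma adjusted p = 0.881). miR-423-5p was at 43808, 46194, 63768 and 66224 after FA and at 30859, 59255 and 34561 after O3, again with overlap.

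No miRNA of the 234 passed the FDR of 0.1 in the comparison of O3 with FA by limma on log2(value + 1), the background share being 0%. At an unadjusted p below 0.05 there were 8, 7 higher after O3 (2.99% of the 234) and 1 lower (0.427%), and the lowest adjusted p was 0.521. By edgeR on the recovered reads 0 passed, with 8 at an unadjusted p below 0.05. DESeq2 called 5 of the 209 miRNAs to which it gave an adjusted p (2.39%), 4 higher and 1 lower. The table lists only miRNAs above 0 in at least 3 of the 7 mice, so miR-139-5p, miR-18a-3p and miR-5130 are in it through the O3 mice alone and miR-505-5p through the FA mice alone. These 4 had to differ between the exposures to be listed, and their p-values and calls, among them 3 of the 5 by DESeq2, are a description and no support for a difference. In all, 86 of the 234 were above 0 in fewer than 3 FA mice and met the filter only with the help of O3 mice. miR-151-5p, miR-183-5p, miR-146b-3p, miR-324-5p, miR-676-3p, miR-1191a and miR-3962 are among the 86. Their differences, and the count of miRNAs with every O3 mouse above every FA mouse, carry that limit. The groups did not overlap for 17 miRNAs, with every O3 mouse above every FA mouse for 15 (6.41%) and below for 2 (0.855%), and 3 of the 15 had O3 means under 10.

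The size and sign of the typical difference changed with the tool and with the zeros. On log2(value + 1) the median of all 234 was 0.64, with 67.1% above 0. Among the 96 miRNAs above 0 in every mouse it was 0.08, with 56.3% above 0. Over all 234 it was -0.04 by edgeR, with 48.7% above 0, and 0.09 by DESeq2, with 55.1%. Median-ratio rescaling of the values left it at 0.65, with 67.5% above 0. Without FA mouse 4 it was 0.27, with 60.3% above 0, and without FA mice 1 and 4, which had the most zeros, 0.11 with 54.3%. Each log2 difference given here on log2(value + 1) is to be read against the median of 0.64 or, for a miRNA above 0 in every mouse, of 0.08.

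**Figure D2:**
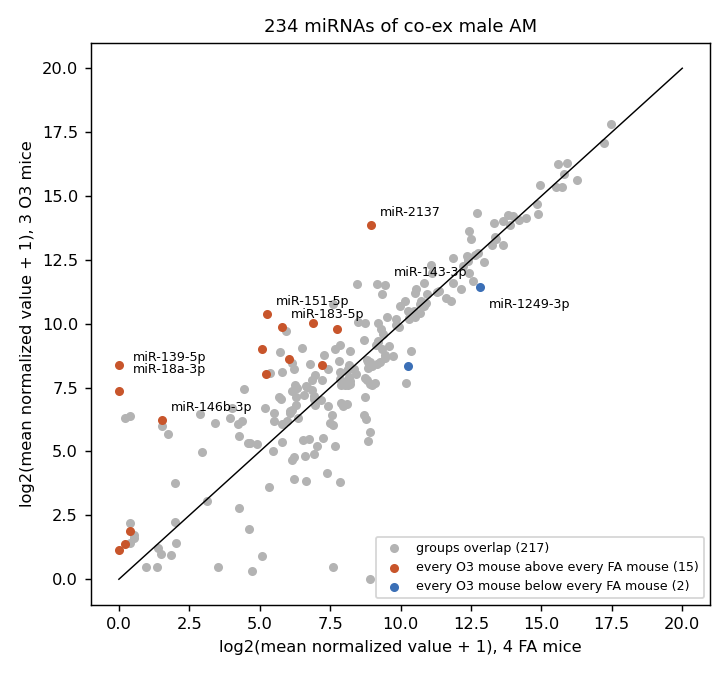
Mean of 3 O3 mice against mean of 4 FA mice for the 234 miRNAs, both as log2(mean normalized value + 1), with the line of equal values. Red and blue points are the 15 and 2 miRNAs whose groups did not overlap, and names mark the 8 with an unadjusted p below 0.05. Abundant miRNAs lie near the line and the scatter widens at low values.

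Of the 8 miRNAs with an unadjusted p below 0.05, the groups did not overlap for 7. Among them, miR-2137, an annotated small RNA of unsettled function, was at 349, 1540.3, 102 and 0 after FA and at 2589.65, 4421 and 37178 after O3. All 3 O3 mice were above all FA mice, and O3 mouse 3 was far above the other O3 mice. The log2 difference was 6.45 (SE 1.90), and 4.30 without FA mouse 4. O3 mouse 3 was also the mouse in which 8 miRNAs with a mean of at least 100 were at 3 or more times the next mouse, miR-2137, miR-6538, miR-1961, miR-34b-3p, miR-3535, miR-6236, miR-92b-3p and miR-320-5p, of 24 such miRNAs in all mice.

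Listed through the O3 mice alone, the following miRNAs were at 0 in every FA mouse. miR-18a-3p, the minor arm of a miRNA that promotes proliferation, had 0 reads in the 4 FA mice and 500, 30 and 85 reads in the O3 mice, or 367, 25.8 and 105 as values. Its O3 mean was at least 18.7-fold higher than the mean of the FA floors of 3 reads per mouse, a bound that fell to 7.37-fold without O3 mouse 1 and rose to 36.6-fold without FA mouse 1. miR-139-5p, a miRNA linked to vascular and growth control, had 0 reads in the FA mice and 29, 542 and 424 in the O3 mice, or 21.3, 466 and 522 as values, at least 38.0-fold higher (74.2-fold without FA mouse 1). O3 mouse 1 was the low one for miR-139-5p and the high one for miR-18a-3p. miR-5130 was also at 0 in all FA mice, but with 1, 2 and 1 reads after O3, which lay under the floor in both groups.

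miR-151-5p was at 0, 114, 36.1 and 0 after FA and at 1565, 1369 and 1066 after O3. Every O3 mouse was above every FA mouse, and the log2 difference was 7.35 (SE 2.50). miR-183-5p, of a sensory and epithelial cluster, was at 0, 32.5, 184 and 0 after FA and at 1017, 1393 and 419 after O3 (log2 difference 6.57, SE 2.66). miR-146b-3p, the minor arm of a miRNA that damps signalling through Toll-like receptors, was at 0, 7.5, 0 and 0 after FA and at 61.0, 58.4 and 102 after O3 (log2 difference 5.41, SE 2.22).

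miR-143-3p, a smooth muscle and fibroblast miRNA, was at 1664, 254, 42.7 and 805 after FA and at 5795, 1648 and 1273 after O3. Its groups overlapped at FA mouse 1, and the log2 difference was 2.72 (SE 1.13), and 1.72 without FA mouse 3. miR-1249-3p was the one lower member of the 8, at 6606, 6735, 4633 and 10618 after FA and at 485, 4426 and 3495 after O3. O3 mouse 1 was far below the other 2, and the log2 difference was -1.80 (SE 0.71), and -0.80 without that mouse. miR-365-3p was the other miRNA with every O3 mouse below every FA mouse, at 2499.98, 607, 881 and 901 after FA and 505, 136 and 346 after O3.

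The other miRNAs with every O3 mouse above every FA mouse did not reach an unadjusted p of 0.05. miR-221-3p, which promotes proliferation in many cells, was at 356, 399.8, 95.3 and 0 after FA and at 821, 1226 and 582 after O3. miR-324-5p was at 0 in FA mice 1 to 3 and at 259 in FA mouse 4, against 539, 311 and 323 after O3. miR-676-3p was at 0, 61.2, 69.0 and 0 after FA and at 898, 376 and 256 after O3. Each of these has at least 1 FA mouse at 0. miR-361-3p was the one of the 15 with no zero in any mouse, at 211, 30.0, 125 and 229 after FA and at 260, 299.7 and 431 after O3, and its ratio of means was 2.22. miR-1191a and miR-3962 had O3 values of at most 2.46 and 5.14, near the worth of 1 read.

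Some miRNAs were carried by 1 mouse. Of 171 miRNAs with a mean of at least 100, 24 were at 3 or more times the next mouse in 1 mouse, 8 in O3 mouse 3, 7 in FA mouse 1, 3 each in FA mice 2 and 3 and in O3 mouse 1, and 0 in FA mouse 4 and O3 mouse 2. miR-34b-3p, which p53 raises and ciliated epithelium expresses, was at 247, 792, 657 and 921 after FA and at 419, 411 and 5993 after O3. miR-150-5p, a lymphocyte miRNA, was at 4485 in FA mouse 2 and between 0 and 387 in the other 6. These were named for their spread, after their values were seen.

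miR-505-5p had 0 reads in the 3 O3 mice, against 10, 565, 461 and 0 reads in FA mice 1 to 4, or 72.7, 353, 1515 and 0 as values. Its FA mean was at least 172-fold higher than the mean of the O3 floors, but at least 50.2-fold without FA mouse 3, which led it. FA mouse 4 was at 0 too, so the groups overlapped, and the limma adjusted p was 0.881. DESeq2 gave it an adjusted p of 0.00357, equal to that of miR-139-5p. miR-151-5p, miR-18a-3p and miR-2137 each had a DESeq2 adjusted p of 0.0911, which edgeR did not repeat, its adjusted p being 0.960 for all 5.

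**Figure D3:**
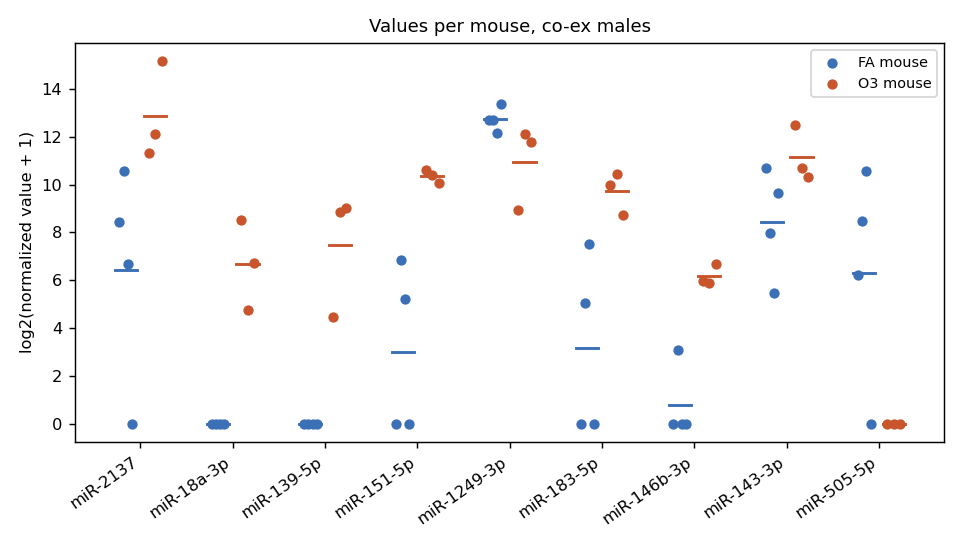
log2(normalized value + 1) of each mouse, blue for 4 FA and red for 3 O3 mice, for the 8 miRNAs with an unadjusted p below 0.05 and for miR-505-5p. Bars are means of the plotted values. Values at 0 lie at the bottom, including all FA mice for miR-18a-3p and miR-139-5p.

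The AM label was set beside markers, and purity was not tested. The blood-lineage list held miR-142a, miR-223, miR-150, miR-155, miR-146a, miR-146b and miR-342. It had 11 members listed and a summed level of 16871 to 41243 in FA and 15188 to 38561 in O3 mice, led by miR-146b-5p. miR-223-3p, a myeloid miRNA, was at 1286, 818, 1459 and 1039 after FA and 2748, 763 and 2251 after O3. miR-142a-3p, common to blood cells, was at 0 in FA mice 1 and 2 and O3 mouse 2 and between 208 and 897 in the other 4. miR-155-5p, an inflammatory miRNA of macrophages, was at 0 in FA mouse 3 and O3 mouse 2 and between 589 and 1152 in the rest. The pair at 0 for miR-155-5p were the mice with high miR-486b-5p.

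Epithelial markers were summed over 12 listed members and stood apart between the exposures on the deposited scaling. Their summed level was 3335 to 11539 in the FA mice and 13027 to 17025 in the O3 mice. Every O3 mouse was thus above every FA mouse. The median log2 difference of the 12 was 1.34, beside 0.64 for all miRNAs. By edgeR it was 1.04 beside -0.04 for all, and by DESeq2 1.17 beside 0.09. Of the 12, 3 had every O3 mouse above every FA mouse, miR-183-5p, miR-375-3p and miR-34c-5p, against 6.41% of all 234, and 1 had an unadjusted p below 0.05, higher after O3, against 2.99% of all. By the ratio of means 6 of the 12 were at least 2-fold higher after O3 and 2 at least 2-fold lower. The lower ones were miR-141-3p, of the miR-200 family, at 58.1, 73.7, 0 and 0 after FA and 1.47, 0 and 1.23 after O3, and miR-182-5p, at 327, 1506, 348 and 0 after FA and 231, 307 and 76.3 after O3, whose fitted log2 difference was above 0 at 0.62. In O3 mouse 3, miR-34b-3p gave 5993 of the 17025. Without it the sums were 2414 to 10882 in FA and 11032 to 12654 in O3 mice, still apart on that scaling. The nearest were FA mouse 3 at 10882 and O3 mouse 3 at 11032, and miR-183-5p gave 184 and 419 of these. The separation thus rests on miR-183-5p. Among the 12, miR-183-5p, miR-200b-5p and miR-141-3p were above 0 in fewer than 3 FA mice and met the filter only with O3 mice. The median and the counts of this list carry that limit. The summed value of all listed miRNAs differed between mice, however. With all 12 members, FA mouse 1 had 10589 of 1002650 and O3 mouse 1 had 13027 of 1290570, a larger share in the FA mouse. As shares of the total, the exposures were thus not apart. miR-375-3p, of epithelial and endocrine cells, was at 124, 129, 220 and 0 after FA and 321, 1235 and 1551 after O3. miR-200c-3p, which keeps the epithelial state, was at 6025, 5952, 7688 and 1601 after FA and 5530, 6570 and 6330 after O3, so the leading epithelial member overlapped. The part of other cells in the difference of miR-183-5p was not tested.

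The 9 mesenchymal members were summed to 2781 to 9991 after FA and 8395 to 19018 after O3, overlapping. The log2 differences of all 9 were above 0, beside 67.1% of all 234. By edgeR and by DESeq2 8 of 9 were above 0, beside 48.7% and 55.1%. The median of the 9 was 2.27, beside 0.64 for all (0.72 by edgeR and 0.86 by DESeq2). That 2.27 is the value of miR-214-3p, which rests on a 0 in FA mouse 4. It was at 392, 761, 1498 and 0 after FA and 550, 1250 and 503 after O3. miR-125b-5p led the mesenchymal list at 3989.8, 3707, 6696 and 534 after FA and 7171, 7008 and 4217 after O3. miR-143-3p is one of these 9, and their part in its difference was not tested. The 8 lymphoid members were summed to 7504 to 17628 after FA and 5764 to 8750.4 after O3, overlapping, and 7 of 8 had log2 differences below 0 (8 of 8 by edgeR and DESeq2), with a median of -0.67. miR-342-3p was at 4302, 6601, 3696 and 9756 after FA and 1608, 4436 and 3680.25 after O3, and miR-181a-5p at 5312, 4301, 3266 and 5394 after FA and 2499, 2139 and 3279 after O3. miR-342 is also on the blood-lineage list. The 5 erythroid members ranged in sum from 27146 to 604357 after FA and from 76765 to 516320 after O3, nearly all miR-486b-5p. No member of the endothelial list is in the table of the co-ex males.

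**Figure D4:**
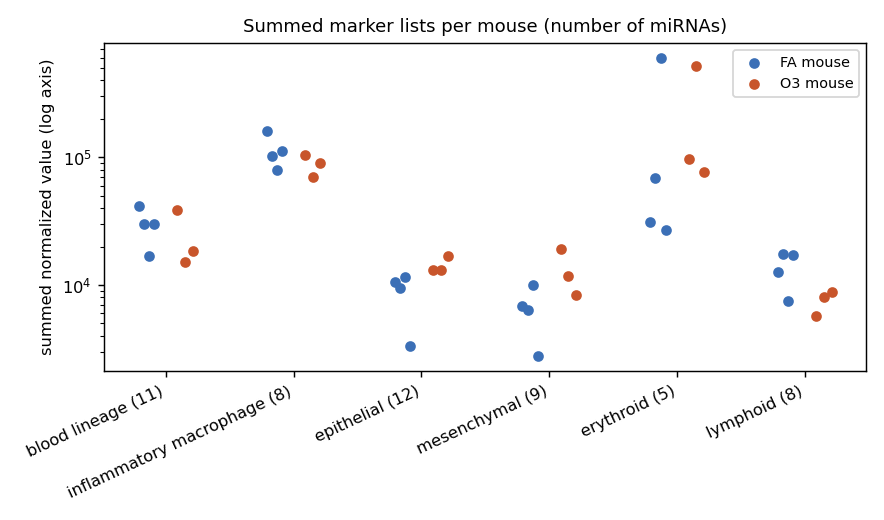
Summed normalized value of 6 marker lists in each mouse on a log axis, blue for FA and red for O3, with the number of listed miRNAs in brackets. The epithelial sums of the O3 mice lie above those of all FA mice, and the erythroid sum is high in 1 mouse of each exposure.

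The inflammatory macrophage list, miR-155, miR-146a, miR-146b, miR-21a, miR-125a and miR-132 among them, had 8 members listed and a summed level of 79332 to 161314 in FA and 70034 to 104090 in O3 mice. miR-146b-5p, the main arm, was at 32442, 16304, 10405 and 17119 after FA and 31537, 8607 and 10548 after O3. miR-21a-5p, a miRNA raised in activated macrophages, was at 33772, 13424, 3650.2 and 7320 after FA and 37273, 9009 and 12104 after O3. In both, FA mouse 1 and O3 mouse 1 were high and the groups overlapped. The log2 difference of miR-146b-5p was -0.30 and of miR-21a-5p 0.61, with adjusted p-values of 0.941 each by limma. A p that misses the threshold does not show that the exposures were alike.

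Among other families, none of the 8 miR-30 members and none of the 7 members of the miR-23/27/24 clusters had an unadjusted p below 0.05, beside 2.99% higher and 0.427% lower over all 234. miR-23a-3p, an abundant member, was at 23292, 26827, 13356 and 26040 after FA and 19886, 15140 and 19236 after O3. miR-15b-5p, of the miR-15/16 family that slows the cell cycle, was at 1366, 6547, 20626 and 3385 after FA and 3104, 9051 and 4208 after O3, high where miR-486b-5p was high. miR-29a-3p, which lowers collagen output, was at 4586, 9251, 2428 and 5567 after FA and 3577, 3398 and 5201 after O3.

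Of the miRNAs that the study selected by name with their targets, 30 are listed in the co-ex male table. That list was chosen on these samples, so it is not independent of them. By the ratio of means, 7 were at least 2-fold higher after O3 and 7 at least 2-fold lower, while 26.9% of all 234 were higher and 17.9% lower by that measure. An unadjusted p below 0.05 was reached by 3, all higher (miR-139-5p, miR-151-5p and miR-143-3p), against 2.99% of all 234 higher and 0.427% lower. miR-139-5p is among them only as a miRNA listed through the O3 mice, and miR-151-5p also needed O3 mice to be listed. The median log2 difference of the 30 was 0.10, against 0.64 for all, and 15 of the 30 were above 0 in every mouse. By edgeR it was -0.19 beside -0.04 for all, and by DESeq2 -0.01 beside 0.09. miR-101b-3p was at 291, 0, 0 and 0 after FA and 391, 210 and 296 after O3, and miR-199b-3p at 50.9, 0, 154 and 0 after FA and 936, 415 and 91.0 after O3. miR-1195 was at 814, 1295, 329 and 2807 after FA and 272, 442 and 761 after O3, with overlap in each case.

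Of 34 precursors with both arms listed, the ratio of 5p to 3p did not pass an FDR of 0.1 in any by limma, and 2 had an unadjusted p below 0.05 (5.88%). For miR-146b the log2 ratio was 15.0, 10.9, 13.3 and 14.1 in the FA mice and 8.99, 7.18 and 6.68 in the O3 mice. All O3 ratios were below all FA ratios, the 3p arm being at 0 in 3 FA mice, and the difference was -5.71 (SE 1.53, adjusted p = 0.235). For miR-151 the log2 ratio was -5.48, 1.02, -3.49 and -10.3 after FA and 1.70, 1.97 and 1.72 after O3, with a difference of 6.37 (adjusted p = 0.719). The next by p were miR-448, miR-361 and miR-340, whose adjusted p was 0.883.

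Summed by seed, none of 165 families passed, with 7 at an unadjusted p below 0.05 (4.24%) and a lowest adjusted p of 0.271 by limma. edgeR on summed reads called 0, with 5 at an unadjusted p below 0.05. Those 7 families were single miRNAs, so they repeat values given above: miR-2137, miR-18a-3p, miR-139-5p, miR-1249-3p, miR-5130, miR-183-5p and miR-146b-3p. Of these, miR-18a-3p, miR-139-5p and miR-5130 are listed through the O3 mice alone. miR-183-5p and miR-146b-3p also needed O3 mice to be listed. The count is thus a description and no support for a difference. Among the 202 miRNAs with a sequence, the highest seeds after let-7 were those of miR-125a-5p, miR-423-5p, miR-92a-3p and miR-23a-3p. miR-486b-5p and miR-30d-5p have no sequence here and are in no seed sum. The miR-25, miR-92a and miR-92b family was at 20618, 23522, 80688 and 24559 after FA and 18956, 57531 and 69051 after O3, where O3 mouse 2 was high through miR-92a-3p and O3 mouse 3 through miR-92b-3p.

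The response to O3 of the co-ex males was set against that of co-ex females (4 FA and 4 O3 mice), SP-A2 males (3 and 3) and KO males (4 and 4), each with its own controls and its own scaling. Tests of the difference in response called none of the shared miRNAs by limma or by edgeR. Against co-ex females, 3 of 217 had an unadjusted p below 0.05 (1.38%) by limma and 5 by edgeR. Against SP-A2 males, 9 of 227 did (3.96%) by limma and 9 by edgeR, and against KO males 16 of 221 (7.24%) and 17. The spread was wider in the co-ex males, with a median SE of the log2 difference of 1.90 among miRNAs shared with the co-ex females, which had 1.10. It was 1.94 against 0.56 in SP-A2 males and 1.90 against 0.83 in KO males. Over the 210 miRNAs that all 4 tables list, 18.8% of the co-ex male values were at 0, and 10.4%, 2.06% and 7.32% of the values of co-ex females, SP-A2 males and KO males.

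miR-143-3p had a higher O3 mean in all 4 groups. In co-ex females it was at 40.0, 114, 632 and 1.24 after FA and 5906, 733, 2919 and 3195 after O3, in KO males at 370, 837, 67.4 and 463 after FA and 3937, 3717, 5369 and 2832 after O3. The log2 difference was 5.63 (SE 1.26, limma adjusted p = 0.0225) and 3.62 (SE 0.67, adjusted p = 0.0135), against 2.72 (SE 1.13) in co-ex males, where it did not pass. miR-2137 was at 142, 749, 437 and 157 after FA and 59395, 24177, 51967 and 1115 after O3 in KO males, a log2 difference of 5.86 (SE 1.08, adjusted p = 0.0135), and its difference in response between co-ex and KO males was 0.59 (SE 2.50).

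miR-151-5p was the miRNA of smallest p against SP-A2 males, whose FA mice had 254, 257 and 534 and whose O3 mice had 443, 469 and 495. Its log2 difference was 0.52 there and 7.35 in co-ex males, a gap of 6.83 (SE 2.26, adjusted p = 0.760), beside 2 FA mice at 0 among the co-ex males. In co-ex females miR-151-5p was at 1.24 to 168 after FA and 400 to 1016 after O3. Its means in KO males were 242 after FA and 607 after O3. miR-146b-3p had FA values of 298, 339 and 420 in SP-A2 males and O3 values of 96.0, 209.6 and 256, every O3 mouse below every FA mouse, with a gap of 6.42 (SE 2.25, adjusted p = 0.760). Also among the 5 of smallest p were miR-144-3p, miR-101b-3p and miR-18a-3p. Each of these 5 was above 0 in fewer than 3 FA co-ex males and met the filter only with O3 mice. The filter thus favoured a large difference in co-ex males, and their rank is a description only. miR-5126 had the smallest p against KO males, where it was 1118 on average after FA and 8495 after O3, while the co-ex male means were 6911 and 6909. miR-6240 was 728 and 8404 on average in KO males. In co-ex males it was at 2558, 1122, 1114 and 974 after FA and 110, 1579 and 5351 after O3, the O3 mice spanning the FA range and O3 mouse 3 highest. Its fitted log2 difference was -0.44 there and 3.36 in KO males, a gap of -3.80 (SE 1.27, adjusted p = 0.555). miR-183-5p, miR-3962 and miR-151-5p completed the 5 and carry the same limit of listing. Against co-ex females the 5 were miR-706, miR-205-5p, miR-34a-5p, miR-18a-3p and miR-15a-5p, with adjusted p-values of 0.989. Of these, miR-706, miR-34a-5p and miR-18a-3p were above 0 in fewer than 3 FA co-ex males.

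**Figure D5:**
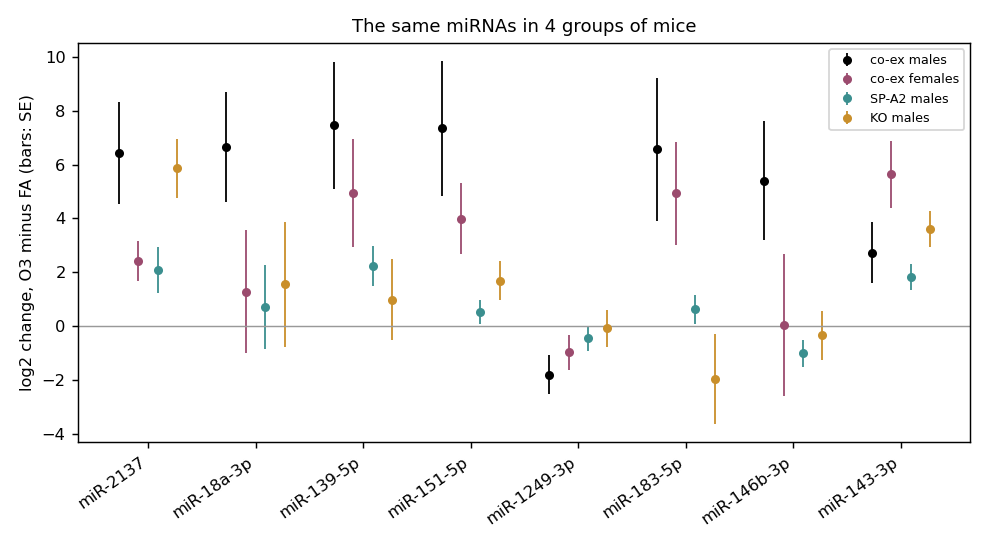
log2 difference (O3 minus FA) with its SE for the 8 miRNAs in co-ex males, co-ex females, SP-A2 males and KO males, each from its own table. The co-ex male SEs are among the widest, and miR-143-3p lies above 0 in all 4 groups.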

How the data were processed

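AMs were lavaged from each mouse, total RNA was extracted, and small RNA libraries (NEXTflex) were read on a HiSeq 2500. Per the labels, the processing notes name CASAVA and edgeR, and the methods name edgeR and TCC; the aligner, miRNA reference and genome build are not given in the sources used here. The deposited signal is a normalized read count per miRNA and mouse, made by the authors within 1 table, so values were compared only within a table; columns with p-values, q-values and ranks in the table hold the authors' own comparison and were not used. Each listed miRNA is above 0 in at least 3 of the 7 mice. Whole reads were taken as each value divided by the smallest value of its mouse; 100% of values came out whole (largest relative deviation 7.4e-15), with 16 to 30 values up to 20 reads in a mouse. Depth is the sum of reads on listed miRNAs.

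The main test was limma 3.58.1 (R 4.3.3) with a trend on log2(value + 1), two-sided, with Benjamini-Hochberg adjustment over all listed miRNAs and an FDR of 0.1. Differences in response were interaction terms on shared miRNAs. edgeR 4.0.16 (quasi-likelihood test, TMM) and DESeq2 1.42.0 on the recovered reads were alternatives, as were pseudocounts of 0.1 and 10, a minimum of 10 in 3 mice, an FDR of 0.05, median-ratio rescaling, a replicate block and leaving out each mouse. Arm ratios used a pseudocount of 1 on each arm and seed families summed values. Steps were tested on simulated counts, which were not built to hold zeros such as those of these libraries. In these libraries, 159 of 1638 values were 0 where the mean of the other mice was worth 100 reads or more. The simulation thus does not show how the tests perform on these data. No sample was left out of the main fits, and each mouse is a separate animal per the labels.

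The members and lists were chosen with earlier results of these data known. Named miRNAs were the 10 highest, all with an unadjusted p below 0.05, all at 0 in every mouse of an exposure, the leading members of each list with study-list members 2-fold apart, the 5 smallest p of each difference in response, arm ratio and seed family, the 5 highest seed families, and any called by another tool or without 1 mouse. Those led by 1 mouse and those whose groups did not overlap were named after their values were seen. The genomic position of miR-505-5p is not reported here.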

Additional observations from a re-analysis of the deposited data

Results flagged for a closer look

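Among 36 values examined over the 4 FA mice, 6 had a mouse far from the other 3 by Dixon's test. Chance flags about 1 in 20 if values are normal, which these unlogged values need not be, so 6 is not read as an excess. FA mouse 3 was high for miR-486b-5p (603115, others 27146 to 68933), miR-92a-3p (72301, others 13844 to 16846), and the summed erythroid list (604357, others 27146 to 68986) and miR-17-92 list (78402, others 16584 to 18908), which those 2 miRNAs lead. FA mouse 1 was high for let-7f-5p (49375, others 23585 to 27681), and FA mouse 2 was the only FA mouse above 0 for miR-146b-3p (7.5). The test always flags such a case, where the other 3 values are equal. O3, with 3 mice, was not examined in this way.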

How the results depend on the processing

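The count of 0 called miRNAs between O3 and FA stayed at 0 in every limma alternative, in edgeR and at an FDR of 0.05, and without each mouse (0 to 0). DESeq2 called 5. Leaving out 1 mouse gave 7 to 13 miRNAs at an unadjusted p below 0.05, the 13 without O3 mouse 1, and 19 to 28 miRNAs with every O3 mouse above every FA mouse in place of 15 (27 without FA mouse 1, 28 without O3 mouse 1, 25 without O3 mouse 3), with 2 to 8 below in place of 2 (8 without FA mouse 3 or O3 mouse 3, 6 without O3 mouse 1 or O3 mouse 2, 5 without FA mouse 1 or FA mouse 4), which fewer mice make easier. Differences in response from SP-A2 males called 0 to 2 without 1 mouse: miR-101b-3p and miR-34a-5p without FA replicate 1, miR-144-3p without FA replicate 3 and miR-324-5p without FA replicate 4. Each of these was above 0 in the left-out FA mouse alone, so its fit had every FA co-ex male at 0. Against KO males the range was 0 to 1, miR-6240 without O3 replicate 3. The log2 changes of the 9 miRNAs named for p or a DESeq2 call kept their sign in all 16 alternatives each, but not their size: miR-1249-3p went from -1.80 to -0.80 without O3 mouse 1. DESeq2 alone took 5 of them past the threshold, miR-139-5p (10.01), miR-18a-3p (9.01), miR-151-5p (5.13), miR-2137 (4.88) and miR-505-5p (-11.48). Differences in reads and in detected miRNAs kept their sign without each mouse, in groups too small for an exact p below 0.05. Leaving out FA mice 1 and 4, or FA mouse 3 and O3 mouse 2, was chosen after seeing the data and called 0.

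With the replicate block, replicates 1 to 3 paired, O3 against FA called 0, and 11 had an unadjusted p below 0.05, while the arm ratio called 1, miR-324. The replicate numbers do not pair the mice (correlations of deviations 0.02, 0.12 and -0.11), and the rest of the block fits called 0. Depth limits low miRNAs: 1 read was worth 7.27 in FA mouse 1 and 0.618 in FA mouse 4.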
